A study of Mus musculus with 3 samples.

Results

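Interferon regulatory factors (IRFs) are the transcription factors that read signals from interferons, pathogen sensors and antigen receptors. The 8 Irf genes named for study (Irf1, Irf2, Irf3, Irf4, Irf5, Irf7, Irf8 and Irf9) were selected by family name, with no cut on a measured value, and each matched 1 of the 50600 genes in the deposited tables through its Ensembl identifier. They were followed in 3 RNA sequencing libraries of mouse regulatory T cells (Treg), the Foxp3-dependent CD4 T cells that restrain immune responses. The libraries, numbered biological replicates 2, 3 and 4, form 1 group: primary cells of strain C57BL/6NJ, with sex not collected and age unknown in the labels, and activated for 16 hours per the file headers. A linked protocol is named for the differentiation of CD4 T cells. All 3 carry the same donor identifier, and the labels do not say how many animals each library holds. Sex-linked counts, given below, show that replicates 2 and 3 were not from the same single animal. Every SD and permutation p below rests on the spread between these 3 libraries, and how much of it is technical was not tested. A chi-square p below measures departure from counting error alone, with no allowance for variation between replicates.

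IRF proteins share a DNA-binding domain with a row of conserved tryptophans and bind variants of the sequence GAAA in repeats. IRF3 and IRF7 are phosphorylated when nucleic acid sensors fire and switch on interferon genes. IRF9 is the DNA-binding subunit of the complex ISGF3, which carries the signal of type I interferon to its target genes. IRF1 and IRF2 bind the same sites, IRF1 mostly as an activator and IRF2 often as its antagonist. IRF4 and IRF8 bind DNA poorly alone and pair with other factors, IRF4 with BATF and JUN proteins in T cells and both with PU.1 in B and myeloid cells. In T cells IRF4 is induced by the antigen receptor, and in mice it is needed for effector Treg cells; mouse IRF1 restrains Treg differentiation.

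The promoter windows of 4 Irf genes are shown because they belong to the most abundant members (Irf4 and Irf8) or hold letters of a motif of the interferon route (Irf8, Irf1 and Irf2). Each is the 250 bases before the annotated start site, 5′ to 3′ on the strand of the gene, from RefSeq on build GRCm38.p6 (coordinates equal to mm10). Capitals mark every match to 5 motifs searched on both strands: the interferon-stimulated response element GAAANNGAAA, the ETS-IRF composite element GGAANNGAAA, the gamma-activated sequence TTCNNNGAA, the kappaB site GGGNNTTTCC and the AP-1 site TGANTCA.
Irf4, chr13:30748983-30749232, plus strand: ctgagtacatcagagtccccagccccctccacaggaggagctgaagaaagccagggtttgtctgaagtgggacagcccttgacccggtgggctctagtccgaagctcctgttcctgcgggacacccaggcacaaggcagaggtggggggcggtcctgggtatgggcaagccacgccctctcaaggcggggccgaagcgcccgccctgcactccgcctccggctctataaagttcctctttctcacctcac
Irf8, chr8:120736108-120736357, plus strand: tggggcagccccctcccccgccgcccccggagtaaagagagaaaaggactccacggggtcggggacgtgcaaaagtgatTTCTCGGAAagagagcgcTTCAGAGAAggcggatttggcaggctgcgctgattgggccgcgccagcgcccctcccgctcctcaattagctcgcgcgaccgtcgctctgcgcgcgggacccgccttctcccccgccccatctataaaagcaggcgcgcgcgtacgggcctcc
Irf1, chr11:53769764-53770013, plus strand: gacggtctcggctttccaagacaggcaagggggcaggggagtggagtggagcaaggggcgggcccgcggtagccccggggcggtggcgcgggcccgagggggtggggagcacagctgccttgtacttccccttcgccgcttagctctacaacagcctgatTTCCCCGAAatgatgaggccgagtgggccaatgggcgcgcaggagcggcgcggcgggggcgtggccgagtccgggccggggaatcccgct
Irf2, chr8:46739495-46739744, plus strand: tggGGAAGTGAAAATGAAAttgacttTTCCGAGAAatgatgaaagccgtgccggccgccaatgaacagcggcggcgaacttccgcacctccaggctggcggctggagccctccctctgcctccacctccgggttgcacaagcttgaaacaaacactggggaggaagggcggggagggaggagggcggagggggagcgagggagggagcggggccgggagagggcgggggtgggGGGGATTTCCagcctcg
In these windows, which run on to 50 bases past the start site in the search, the gamma-activated sequence, the STAT dimer element, matched in Irf1 from position -90, counted in bases from the start site. It matched from -171 and -153 in Irf8 and from -224 in Irf2. Irf1 and Irf8 have 2 windows each, and the other window of each, not shown, matched none of the 5 motifs. Irf2 alone among the 8 genes held the interferon-stimulated response element, from -241, with an overlapping ETS-IRF composite match from -247 and a kappaB match from -17. The 11 windows of the 8 genes held no AP-1 match, and the single Irf4 window matched none of the 5 motifs. Over all 32851 promoter windows of this length in the table, 3.44% held the interferon-stimulated response element, 2.72% the ETS-IRF element, 8.3% the gamma-activated sequence, 1.63% the kappaB site and 7.81% the AP-1 site. Counted by gene over 27025 genes, the shares were 3.99%, 3.16%, 9.55%, 1.89% and 8.97% in the same order. A match of letters is a description and not a binding site.

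Depth was 41222058, 47665060 and 99097524 assigned fragments in replicates 2, 3 and 4, so the deepest library gives the smallest counting error. Levels are given in TPM, transcripts per 1000000, which scales for gene length and library total, and a gene is called expressed at 1 TPM or more in each of the 3 libraries. All 8 markers of Treg and T cells were expressed, from Trac (1743 ± 26.3 TPM) and Il2ra (658 ± 23.3) at the top to Ikzf4 (56.1 ± 6.14) at the bottom, and the defining gene Foxp3 was at 76.4, 82.3 and 83.9 TPM. Sex-linked RNA set the libraries apart: Xist had 27625, 85 and 18895 fragments and 4 Y-linked genes summed to 18, 8147 and 12380, in replicates 2, 3 and 4. Replicate 2 held little Y-linked RNA and replicate 3 little Xist, whereas replicate 4 held both kinds. Sex makeup therefore cannot be told apart from any other difference between these libraries. None of the 8 Irf genes lies on a sex chromosome. The mean chi-square statistic per gene between pairs of libraries was 17.2 to 26.6, above the value near 1 that counting error alone gives, so all 3 were kept as separate samples.

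Irf4 and Irf8 made up almost all of the IRF transcript pool. Summed over the 8 genes, the pool was 2484, 2502 and 2541 TPM in replicates 2, 3 and 4, of which Irf4 and Irf8 together held 93.0%, 93.0% and 92.9%. Of the 8 genes 7 were expressed, all but Irf7, against 45.6% of the 21764 protein-coding genes. The median over the 8 genes of the mean level was 20.5 TPM, and the median over all protein-coding genes was 0.355 TPM.

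**Figure D1:**
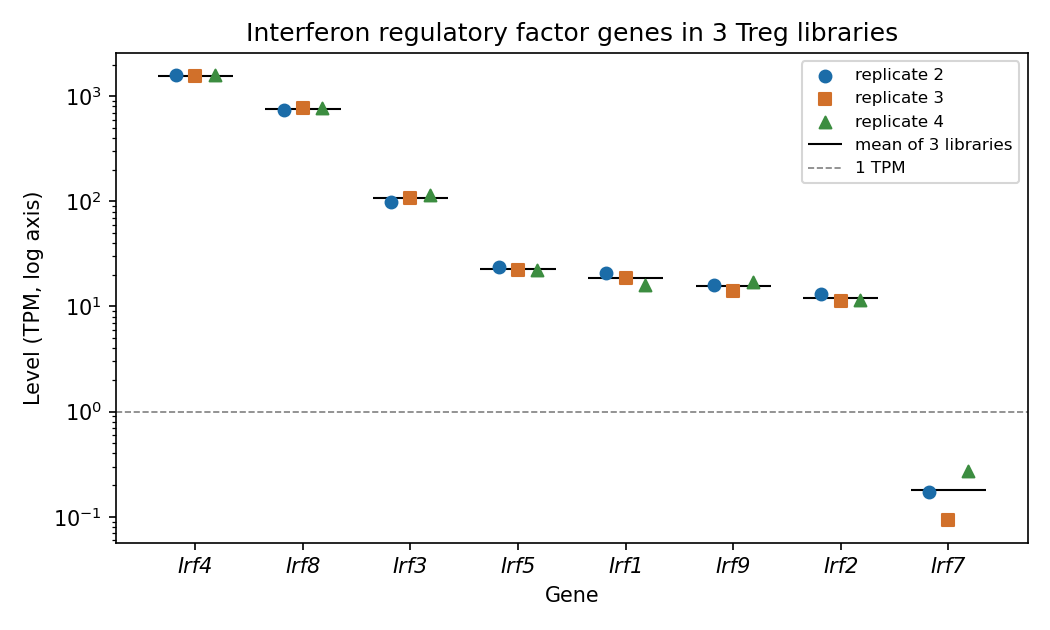
Level of each Irf gene in TPM (log axis) in the 3 Treg libraries, with a line at the mean of 3 libraries and a dashed line at 1 TPM. Irf4 and Irf8 lie at the top, 5 genes lie between 11.3 and 114 TPM, and Irf7 is below 1 TPM in all 3 libraries.

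Irf4 (ENSMUSG00000021356.9; chromosome 13, 30749226 to 30766927, plus strand) stood at 1579, 1554 and 1583 TPM in replicates 2, 3 and 4, a mean of 1572 ± 15.7 (SD, n = 3). It ranked 52, 58 and 55 among protein-coding genes in the same libraries. Its coefficient of variation of 0.999% was the lowest of the 7 expressed Irf genes, from 413990 fragments in all. The nearest protein-coding genes in level over the 3 libraries were Atp5b, an ATP synthase subunit (1564 ± 37.4 TPM), and Tnfrsf4, the costimulatory receptor OX40 (1524 ± 70.1 TPM). They differed from Irf4 by at most 0.05 and 0.09 in log2(TPM + 1) in any library.

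Irf8 (ENSMUSG00000041515.9; chromosome 8, 120736358 to 120756694, plus strand), best known as a factor of dendritic cell, monocyte and B cell development, was at 733, 774 and 777 TPM, a mean of 761 ± 24.7 (SD, n = 3). Its rank among protein-coding genes was 175, 162 and 163. Tuba1b, a tubulin gene (762 ± 44.0 TPM), and Mcm5, a subunit of the replicative helicase (761 ± 44.2 TPM), were nearest to it in level. Markers of the cells in which Irf8 is usually studied were at or near 0. None of 12 myeloid and dendritic cell markers was expressed, and their summed level was 1.26, 1.44 and 0.819 TPM. Csf1r, Lyz2, Xcr1, Clec9a, Siglech and C1qa had no fragment, and the highest, Zbtb46 and Itgax, averaged 0.873 ± 0.156 and 0.106 ± 0.149 TPM. None of 8 B cell markers was expressed either, with a summed level of 3.51, 3.29 and 3.30 TPM. Cd79a and Cd79b were highest at 1.12 ± 0.233 and 0.884 ± 0.0924 TPM, and Cr2 was lowest with 0, 9 and 1 fragments. In bulk RNA, fewer cells of a type and less RNA per cell cannot be told apart.

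Irf3, present in most cells as a latent factor, came next at 99.0, 108 and 114 TPM (107 ± 7.61, SD, n = 3; chromosome 7, 44997648 to 45002848). Srebf1, a factor of lipid synthesis, and Ints5, an Integrator subunit, lay nearest to it at 106 ± 8.95 and 106 ± 8.07 TPM. Irf5, which drives inflammatory cytokine genes downstream of Toll-like receptors, was at 23.7, 22.05 and 22.01 TPM (22.6 ± 0.976; chromosome 6, 29526625 to 29541871). The nucleolar protein gene Nepro and the Golgi protein gene Acbd3 had nearly the same level as Irf5, at 22.7 ± 1.18 and 22.7 ± 0.757 TPM.

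Irf1 was low at 20.6, 18.8 and 16.2 TPM (18.5 ± 2.23, SD, n = 3; chromosome 11, 53770014 to 53778374), with the highest coefficient of variation of the expressed Irf genes, 12.1%. Irf9 was at 16.1, 13.96 and 17.2 TPM (15.8 ± 1.66; chromosome 14, 55603571 to 55610030). Irf2 was at 13.2, 11.3 and 11.6 TPM (12.0 ± 1.00; chromosome 8, 46739732 to 46847458). These 3 genes of the interferon response therefore lay within 11.3 to 20.6 TPM in all libraries. Nearest in level were Mboat1 and Stard5 to Irf1 (18.9 ± 2.47 and 18.6 ± 1.4 TPM), Adat1 and Klhl26 to Irf9 (15.8 ± 1.35 and 15.8 ± 1.98) and Cryzl1 and Dtwd2 to Irf2 (12.1 ± 0.849 and 12.1 ± 1.162).

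Irf7, the interferon-inducible partner of Irf3 (chromosome 7, 141262706 to 141266481, minus strand), stayed below 1 TPM throughout. Replicates 2, 3 and 4 held 8, 5 and 30 of its fragments, which make 0.174, 0.0924 and 0.272 TPM. The exact 95% Poisson intervals were 0.0749 to 0.342, 0.0300 to 0.216 and 0.183 to 0.388 TPM and cover counting error only. Its whole span of 3776 bases is 1 block in the merged exon annotation, introns of its coding transcripts included. Irf3 exceeded Irf7 by 570.5, 1169 and 420.0 times on the TPM scale.

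The order by mean level was Irf4, Irf8, Irf3, Irf5, Irf1, Irf9, Irf2 and Irf7. Of the 7 neighbouring pairs, 6 kept their sign in all 3 libraries and had ranges that did not overlap. Irf1 and Irf9 changed places in replicate 4, and their ranges of 16.2 to 20.6 and 13.96 to 17.2 TPM overlapped. The mean difference in log2(TPM + 1) was 1.05 ± 0.05 for Irf4 over Irf8, 2.82 ± 0.06 for Irf8 over Irf3 and 2.19 ± 0.16 for Irf3 over Irf5 (SD, n = 3). It was 0.28 ± 0.13 for Irf5 over Irf1, 0.22 ± 0.27 for Irf1 over Irf9, 0.36 ± 0.15 for Irf9 over Irf2 and 3.47 ± 0.14 for Irf2 over Irf7. The last value depends on the pseudocount of 1, since it was 5.49 ± 0.47 with 0.1. The exact two-sided sign-flip permutation test gave p = 0.25 for 6 pairs, the smallest that 3 libraries allow, and p = 0.5 for Irf1 over Irf9 (Benjamini-Hochberg adjusted 0.292 and 0.5 over the 7 pairs), so no pair can pass a threshold of 0.05.

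Part of this order rests on the gene length used. The deposited length joins the exons of all transcripts in GENCODE M13, and the longest protein-coding transcript was taken from GENCODE M21. The first was 1.3 to 2.96 times the second for the 7 genes other than Irf4, where that ratio was 0.99. Because the 2 annotations differ, the ratio can fall below 1. With the length of that transcript for every gene, Irf8 (1314, 1383 and 1390 TPM) stood above Irf4 (1130, 1108 and 1132 TPM) in all 3 libraries. The ratio of Irf4 to Irf8 was 2.07 ± 0.0779 with merged exons, 1.38 ± 0.0521 by fragment counts without a length and 0.825 ± 0.0311 with the transcript length (SD, n = 3). Irf2, Irf1, Irf5 and Irf9 then drew together at 25.7 ± 2.20, 24.9 ± 3.01, 21.1 ± 0.950 and 20.7 ± 2.22 TPM, with overlapping ranges between neighbours. Under both lengths Irf4 and Irf8 lay above Irf3, Irf3 above the other 5 genes, and Irf7 last.

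**Figure D2:**
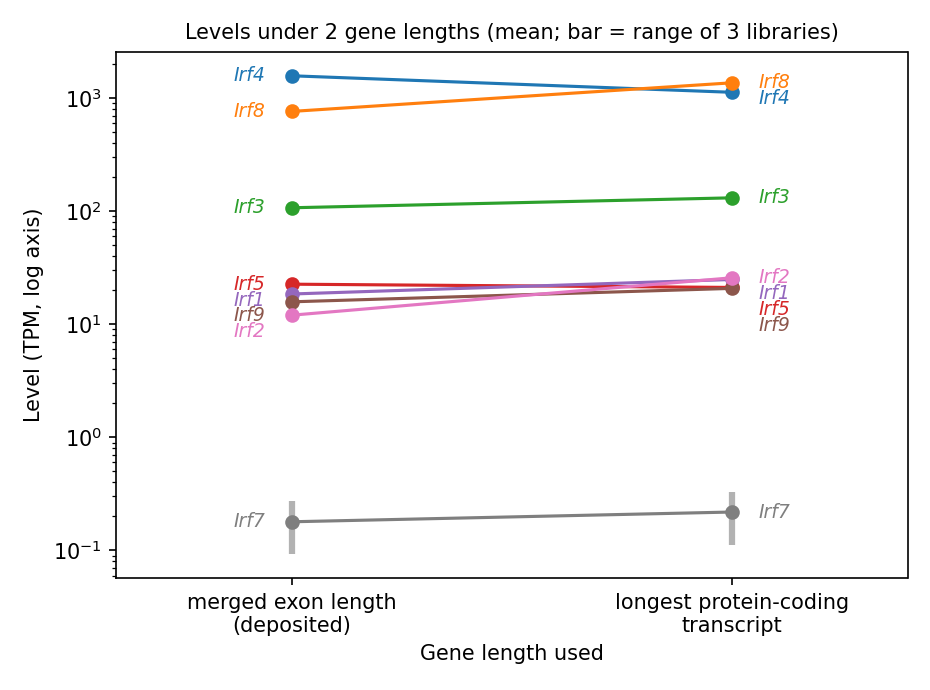
Mean TPM (log axis) of the 8 Irf genes with the deposited merged exon length, left, and with the longest protein-coding transcript, right; bars span the 3 libraries. Irf4 and Irf8 change places, Irf2, Irf1, Irf5 and Irf9 converge between 20.7 and 25.7 TPM, and Irf7 stays below 1 TPM on both sides.

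Genes that lie at the Irf loci bear on the counts. Exons of Rnf31, a ubiquitin ligase gene on the same strand at 56.8 ± 4.42 TPM, overlap Irf9 exons over 123 bases, 2.28% of the Irf9 length; fragments there would fall to neither gene by the counting program's default. Overlaps of 4 other Irf genes run on the opposite strand, which the stranded count keeps apart. Tnpo3 (64.2 ± 0.590 TPM) covers 14.1% of the Irf5 exon length, Irf1 shares 3.4% with Gm17334, Irf3 shares 2.56% with Bcl2l12 and Irf7 shares 1.19% with Phrf1. Within 5 kb of Irf4 no other gene was annotated. Gm16675, a divergent long noncoding RNA at the start of Irf2, was at 1.76 ± 0.290 TPM. The other genes within 5 kb were Gm45479, Gm31172 and Gm45481 inside Irf2, Cdhr5 beside Irf7 and Gm20388 around Irf8, all without a fragment, with Gm15545 (2.14 ± 0.365 TPM) and Scaf1 (103 ± 12.0) beside Irf3 and Gm43029 (1.32 ± 0.207) beside Irf5.

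The 7 expressed Irf genes differed between the 3 libraries about as much as other genes of 10 TPM and above. The ratio of their highest to their lowest CPM (counts per 1000000) ran from 1.02 for Irf4 to 1.26 for Irf1. For comparison, 7743 protein-coding genes with a level of 10 TPM and above had a median ratio of 1.13. Irf1 was highest in replicate 2 and lowest in replicate 4, whereas Irf3 and Irf9 were highest in replicate 4. Irf8 and Irf3 were lowest in replicate 2, and Irf9 and Irf2 in replicate 3. The median coefficient of variation of the 7 genes was 7.11%, against 6.18% for those protein-coding genes. Irf1 (12.1%) and Irf9 (10.6%) lay above the upper quartile of those protein-coding genes, 8.98%, and the rest of the 7 lay below it. Tagwise biological coefficients of variation from edgeR were 6.89% to 10.1% for the 7 genes, with a common value of 11.1%. Because edgeR draws these values toward those of other genes, they are not separate estimates per gene. For Irf4 the value was 7.46%, beside 0.999% for its TPM.

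**Figure D3:**
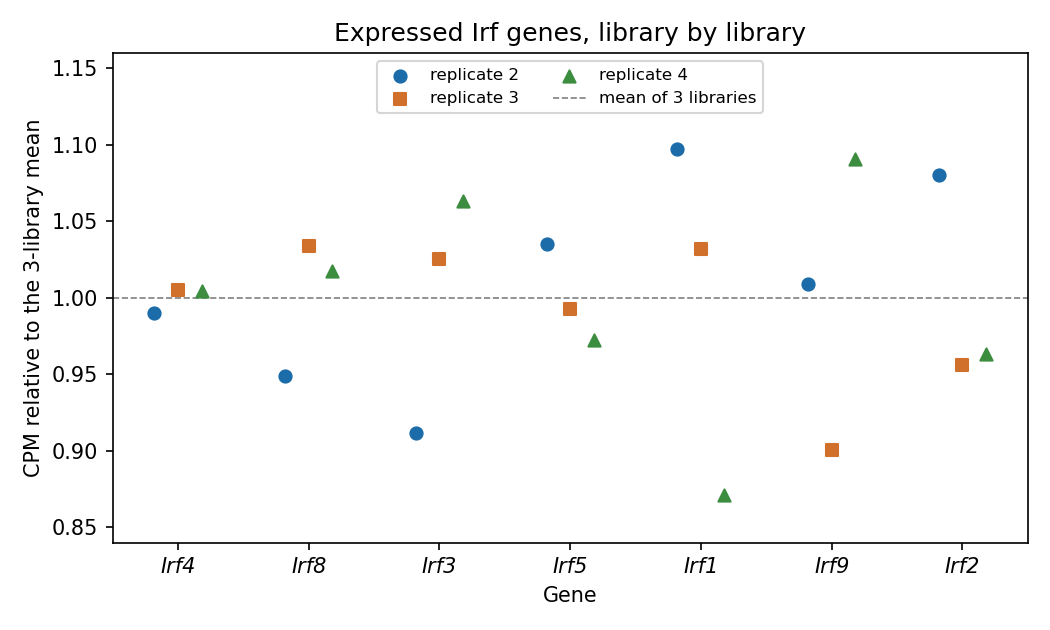
CPM of the 7 expressed Irf genes divided by the mean of the 3 libraries, 1 point per library, with a dashed line at the mean. Irf4 stays within 0.99 and 1.01, and the widest gap is that of Irf1, at 1.10 in replicate 2 and 0.871 in replicate 4.

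Equality of rates between libraries was tested with a chi-square statistic per gene, and a gene was called where the Benjamini-Hochberg adjusted p over 13688 genes was under 0.05 and the CPM ratio at least 2. None of the 8 Irf genes was called, against 11.0% of all tested genes, and none at an unadjusted p under 0.05 with that ratio. That 11.0% includes scarce genes, of which 49.1% were called at 30 to 100 fragments in all. The 7 expressed Irf genes had 3628 fragments or more each. The share called among genes with that many fragments was not computed, so the absence of calls cannot be read as setting them apart. Scaling by DESeq2 size factors or by total counts also gave 0. By adjusted p alone, with any ratio, 6 of the 8 passed, against 70.5% of all genes. At this depth small ratios pass, as for Irf8 with a ratio of 1.09 and an adjusted p of 1.51e-63. Irf4, among the 6 with a chi-square adjusted p of 0.000939, depended on the scaling. Its adjusted p was 0.0728 with DESeq2 size factors and 0.950 with total counts. With the highest library at least 25% above the lowest, 1 Irf gene was called, Irf1 (adjusted p = 5.75e-09), against 27.5% of all genes, and at 1.5 none, against 16.1%. Irf7 had a ratio of 2.89 and an adjusted p of 0.0732, which missed the threshold. Without replicate 2 the adjusted p was 0.0470 at the same ratio, past the threshold, and without replicate 3 the ratio was 1.58 and the adjusted p 0.339. Its 43 fragments limit that value: among 1971 genes with 30 to 100 fragments in all, the median ratio was 2.49 and 49.1% were called.

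**Figure D4:**
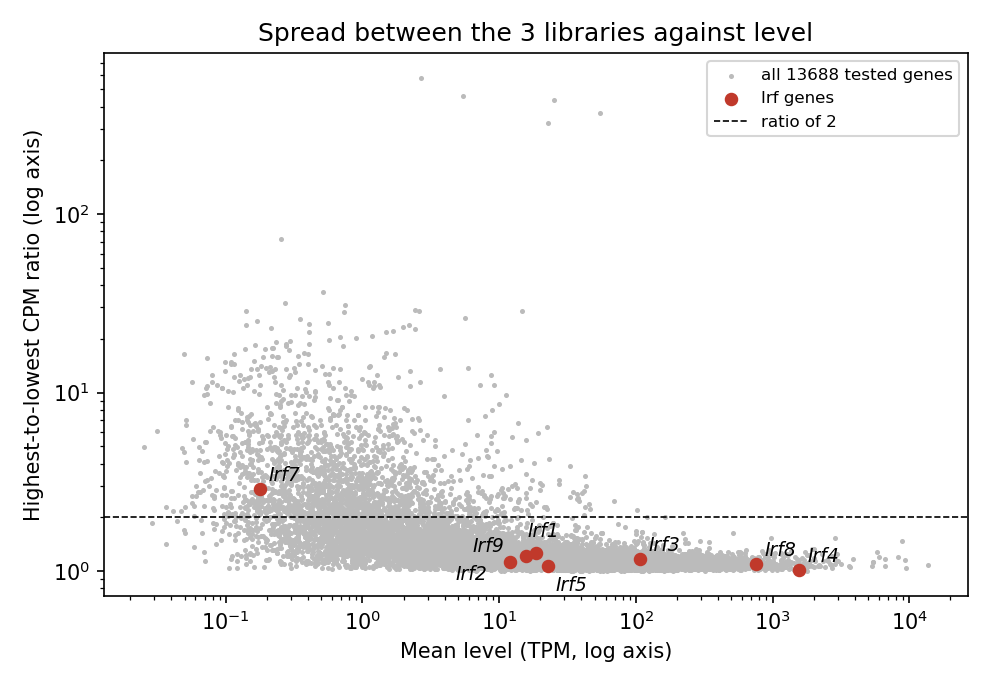
Highest-to-lowest CPM ratio between the 3 libraries (log axis) against mean TPM (log axis) for all 13688 tested genes, grey, and the 8 Irf genes, red, with a dashed line at a ratio of 2. The 7 expressed Irf genes lie at 1.02 to 1.26 and Irf7 at 2.89, among scarce genes with wide ratios.

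Genes that lead from the T cell receptor to Irf4 were all expressed: 11 of 11 reached 10 TPM throughout, and their median was 97.4 TPM. Nfkb1, which encodes the p105/p50 subunit of NF-kappaB, was highest at 364, 383 and 393 TPM, followed by the orphan receptor gene Nr4a1 at 316, 373 and 361 TPM. The lowest, the mTORC1 subunit Rptor, was at 29.3 ± 1.55 TPM. None of the 11 was called between libraries, against 11.0% of all tested genes, a share that includes scarce genes. The share at the depth of these 11 was not computed.

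The DNA-binding partners of IRF4 and IRF8 varied widely in level. Of 13 partners 9 were expressed, and the median was 47.3 TPM. The AP-1 genes Jund (466, 551 and 514 TPM) and Junb (456, 553 and 500 TPM) were highest. The ETS partners were chosen for mention after their values were seen: Spi1, which encodes PU.1, had 3, 8 and 0 fragments, and Spib was at 1.14, 0.584 and 0.883 TPM. Batf, a partner of IRF4 in T cells and chosen likewise, was at 81.2, 88.9 and 88.6 TPM, while Batf2 had no fragment (3 fragments would make 0.0975 TPM). Of 11 tested partners 1 was called between libraries, against 11.0% of all tested genes. It was Batf3, at 1.08, 0.306 and 2.57 TPM in replicates 2, 3 and 4, with a CPM ratio of 8.25 (chi-square adjusted p = 3.11e-11). It rests on 21, 7 and 120 fragments, lowest in replicate 3 and highest in replicate 4.

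All 11 genes for modifiers and interactors of IRF proteins were expressed (median 95.02 TPM). None was called between libraries, against 11.0% of all tested genes, scarce genes included. Fkbp4, an immunophilin that binds IRF4, was highest at 831, 909 and 868 TPM. Def6, whose product binds IRF4 and limits its activity in mouse T cells, followed at 156, 177 and 178 TPM. The ubiquitin ligase gene Trim21 was lowest at 9.04 ± 0.801 TPM.

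Genes linked to IRF4 function in T cells were uneven, with 9 of 14 expressed and a median of 28.0 TPM. Tcf7, a factor of naive and memory T cells (1012, 1045 and 993 TPM), and the chemokine receptor gene Ccr8 (914, 870.1 and 835 TPM) were highest. Prdm1, which encodes the effector Treg factor Blimp-1, had 1, 8 and 2 fragments, and Klrg1, an effector marker, had none (3 fragments would make 0.174 TPM). Prdm1 was chosen for mention after its values were seen. Of the 14 genes 11 were tested between libraries and none was called, against 11.0% of all tested genes.

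**Figure D5:**
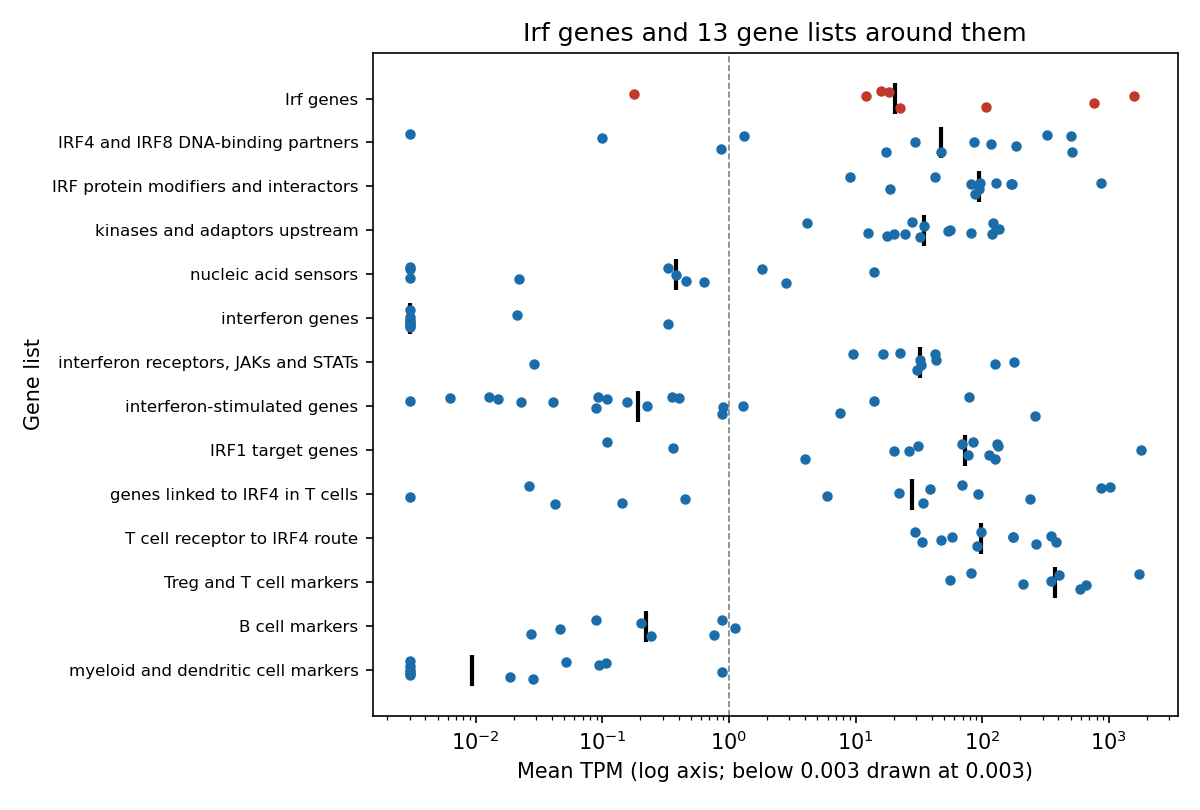
Mean TPM (log axis) of the 8 Irf genes, red, and of the genes of 13 lists around them, blue; the bar marks each list's median, the dashed line 1 TPM, and genes below 0.003 TPM are drawn at 0.003. Kinases, receptors and T cell receptor genes lie above 1 TPM except Ifnlr1, while interferons and most interferon-stimulated genes lie below it.

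On the interferon side, the kinases and adaptors that act on IRF3, IRF5 and IRF7 were present while most sensors were scarce. All 15 kinase and adaptor genes were expressed (median 34.9 TPM), led by Myd88 (133, 139 and 133 TPM), the adaptor of most Toll-like receptors, and the ubiquitin ligase Traf6 (136, 118 and 128 TPM). Tirap was lowest at 4.11 ± 0.256 TPM. Tbk1 and Ikbke, which encode the kinases of IRF3, were at 32.1 ± 0.606 and 34.9 ± 3.63 TPM, and were chosen for mention after their values were seen. Of 11 listed sensor genes 3 were expressed (median 0.381 TPM). The list holds Tlr4, the lipopolysaccharide receptor, beside genes of nucleic acid sensing. Cgas, the cytosolic DNA sensor, was highest at 14.3, 13.1 and 14.3 TPM, and X-linked Tlr7 next at 3.61, 2.05 and 2.87 TPM; Tlr4, Tlr8 and Ifi204 had no fragment. Dhx58 (1.95, 1.15 and 2.35 TPM, CPM ratio 2.00) and Tlr9 (0.589, 0.221 and 0.561 TPM, ratio 2.59) were called between libraries (chi-square adjusted p = 4.44e-05 and 0.0182), 2 of 7 tested, against 11.0% of all tested genes. Tlr9 had under 100 fragments in all, the class in which 49.1% of genes were called at a median ratio of 2.49.

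Interferon genes themselves were not detectable or nearly so. Of 10 genes, 8 had no fragment in any library, Ifnb1 and Ifna4 among them; copies of the Ifna family are near-identical, so their counts are uncertain. Ifnl2 had 0, 10 and 0 fragments in replicates 2, 3 and 4, and Ifng had 1, 0 and 0. The receiving side was expressed, with 10 of 11 receptor, JAK and STAT genes at or above 1 TPM throughout (median 32.3 TPM). Jak1 (184, 177 and 176 TPM) and Jak2 (134, 119 and 125 TPM) were highest, and Ifnlr1, a chain of the lambda interferon receptor, was lowest with 4, 0 and 1 fragments.

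Most targets of ISGF3 lay below 1 TPM. Of 20 interferon-stimulated genes 4 were expressed and 13 were under 1 TPM throughout; the median was 0.192 TPM. Bst2, the virion tether, was highest at 244, 277 and 268 TPM, followed by Ifi35 at 76.5, 77.8 and 80.5 TPM, and Mx1 had no fragment (3 fragments would make 0.0674 TPM). Called between libraries were Isg15 (11, 5 and 49 fragments), Oas2 (17, 4 and 12), Oasl1 (16, 43 and 77) and Usp18 (18, 13 and 17), with CPM ratios of 4.72, 4.84, 2.36 and 2.51 (chi-square adjusted p = 0.00103, 0.000534, 0.0156 and 0.0303). That is 4 of 10 tested, against 11.0% of all tested genes, and Isg15, Oas2 and Usp18 had 30 to 100 fragments in all, the class in which 49.1% were called. They did not share a direction: replicate 3 was lowest for Isg15 and Oas2, replicate 2 for Oasl1 and replicate 4 for Usp18.

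The response element was present in promoters at both ends of that range. Of the 15 interferon-stimulated genes with a promoter window, 9 held GAAANNGAAA, or 60.0%, against 3.99% of 27025 genes with a window. The mean levels of the 9 had a median of 0.405 TPM and 2 of them were expressed; the other 6 had a median of 0.490 TPM and 2 were expressed. For 6 of the 9, chosen after their values were seen to span the levels, 30 bases on the strand of the gene are shown with the first match in capitals (GRCm38.p6; in Rsad2 and Ifit1 it reads on the opposite strand).
Bst2, chr8:71537583-71537612, minus strand: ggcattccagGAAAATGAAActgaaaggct
Eif2ak2, chr17:78882535-78882564, minus strand: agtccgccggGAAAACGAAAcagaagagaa
Isg15, chr4:156200877-156200906, minus strand: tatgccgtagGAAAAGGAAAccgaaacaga
Ifit1, chr19:34640775-34640804, plus strand: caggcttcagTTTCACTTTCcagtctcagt
Cxcl10, chr5:92349083-92349112, minus strand: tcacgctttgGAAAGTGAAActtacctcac
Rsad2, chr12:26456553-26456582, minus strand: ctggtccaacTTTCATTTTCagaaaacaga
Their levels were 263 ± 17.2 TPM for Bst2, 7.59 ± 0.730 for the kinase gene Eif2ak2, 1.29 ± 0.882 for Isg15, 0.902 ± 0.311 for Ifit1 and 0.109 ± 0.0666 for the chemokine gene Cxcl10 (SD, n = 3). Rsad2 had 1, 0 and 0 fragments. Genes with the same element in the window thus ranged from 263 TPM to a single fragment in all.

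Targets of IRF1 were mostly expressed, with 12 of 14 expressed and a median of 73.0 TPM. B2m, the light chain of MHC class I, was highest at 2068, 1644 and 1667 TPM, and Cd274, which encodes PD-L1, next at 131, 127 and 138 TPM. Ciita, the master factor of MHC class II, was lowest with 8, 2 and 27 fragments and was called between libraries (CPM ratio 6.50, chi-square adjusted p = 0.0200). It was 1 of 14 tested, against 11.0% of all tested genes, and 49.1% of genes with as few fragments (30 to 100) were called. Nlrc5, the class I transactivator, was at 33.8, 18.05 and 27.3 TPM and was chosen after its values were seen; its ratio of 1.81 missed the threshold of 2 at an adjusted p of 2.57e-105.

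Over the 13 lists together, 158 genes were measured, 113 were tested between libraries and 9 were called, to be read against the 11.0% of all tested genes. Replicate 3 was lowest for 6 of the 9 (Batf3, Dhx58, Tlr9, Isg15, Oas2 and Ciita), and it was lowest for 46.8% of all called genes.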

How the data were processed

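Each library's deposited table holds unnormalized fragment counts by gene and merged exon lengths. Per the file headers, featureCounts 1.4.6-p4 counted paired-end fragments with both ends aligned over exons of GENCODE M13, reverse-stranded (option 2); the build is mm10 per the labels. The sources used here do not name the aligner's version or settings. Fragments on several genes or places are left out by that program's default, so near-identical genes can be undercounted. Symbols, gene types and the transcript lengths came from GENCODE M21 (50376 of 50600 identifiers matched).

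From the deposited counts, TPM (count over deposited length, scaled to 1000000) and CPM on trimmed-mean (TMM) library sizes were computed. With 1 group, edgeR's quasi-likelihood test has no contrast. A chi-square test of equal rates (2 degrees of freedom; at least 30 fragments in all) compared libraries, not conditions; a lowest value of 0 was taken as 3 fragments. It was tried on simulated counts that held counting error only. That run cannot give its error rate in libraries that vary beyond counting error, as these do. Intervals cover counting error only, and no molecular identifiers are named in the labels.

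The Irf genes and gene lists were chosen with earlier results of these data known. Named were all Irf genes, in each list the 2 highest, the lowest and any gene called, the 2 protein-coding genes nearest in level to each expressed Irf gene (smallest largest log2(TPM + 1) difference over libraries) and genes within 5 kb; some genes that this rule names are not reported here. Alternatives tried were other scalings, gene length, pseudocount, thresholds and each replicate left out. Tools were R 4.3.3, edgeR 4.0.16, DESeq2 1.42.0, matplotlib 3.10.9, scipy 1.17.1, pandas 2.3.3, numpy 2.4.6 and Python 3.11.15.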

Additional observations from a re-analysis of the deposited data

How the results depend on the processing

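Gene length moved the order most. With the longest protein-coding transcript, 3 of the 7 neighbouring pairs kept their sign in every library, against 6 with merged exons, and the log2 differences reversed to -0.28 for Irf4 over Irf8, -0.22 for Irf5 over Irf1 and -0.30 for Irf9 over Irf2; merged exons were 0.99 times the transcript length for Irf4 and 2.48 times for Irf8, so the exchange follows from the lengths. Leaving out 1 replicate gave 6 to 7 such pairs, and a pseudocount of 0.1 gave 6. The count of 7 expressed Irf genes held under every alternative run for it: 4 other scalings or lengths, minimums of 0.5 and 5 TPM, and each replicate left out. With a replicate left out, 0 to 1 Irf genes were called between libraries, the 1 being Irf7 without replicate 2. Without replicate 4, Irf7 could not be called, since its 8 and 5 fragments fell under the 30 needed for a test. With a ratio threshold 25% above equality, 1 Irf gene (Irf1) was called. The number called was 0 with DESeq2 size factors, total counts, no count filter or a ratio of 1.5. Without the filter 2821 genes were called in all, and 523 to 777 with a replicate left out, against 1505. The median coefficient of variation was 7.34% with DESeq2 size factors, against 7.11%. Of the list genes, 92 to 95 were expressed with a replicate left out and 100 at 0.5 TPM, against 92. No paired analysis was possible because there is 1 group. Depth limits Irf7 and the interferon-stimulated genes with few fragments.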
